A study of Mus musculus with 16 samples.

Results

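The visceral endoderm is the epithelium that wraps the mouse conceptus after implantation. Its extraembryonic part (exVE) covers the extraembryonic tissues and later contributes to the visceral yolk sac, and its embryonic part (emVE) covers the epiblast, signals to it and is later dispersed among the definitive endoderm that enters the same layer. Both parts take up material from the maternal side through apical receptors, break it down in large lysosomes, and secrete lipoproteins and carrier proteins to the embryo. Here 2 libraries titled as E7.5 exVE cells were compared with 2 titled as E7.5 emVE cells, across all genes, 4 of the 16 libraries of the series. The libraries were chosen by their titles alone, and no measured value entered that choice. The gene lists were chosen with earlier results of these data known, so counts on lists describe and do not test.

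All 4 libraries were made from polyadenylated RNA of mouse embryos at E7.5, from natural matings. Per the labels, the endoderm layer was freed with a short pancreatin and trypsin treatment on ice, lifted off with tungsten needles and dissociated with enzymes at warm temperature. The protocol names definitive and visceral endoderm together for this stage, so definitive endoderm cells may share the emVE preparations. No treatment or transgene is given for the E7.5 embryos, and their strain and genotype, the embryos behind a library and any sort of the cells are not stated in the labels used. The p-values therefore measure only the spread between these libraries, which may be technical. The other 12 libraries of the series came from gut tubes at E8.75 and were used only in an alternative fit.

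The libraries held 57061536 to 66331762 counts, and 15964 and 16379 gene symbols had a count in the exVE libraries against 17394 and 17522 in the emVE libraries. A level is a CPM, the count over an effective library size. That size includes the TMM factor, which corrects for differences in RNA composition and was 0.912 and 0.895 in exVE and 1.11 and 1.10 in emVE. Differences are log2 fold changes, exVE minus emVE, with a standard error (SE) and a Benjamini-Hochberg adjusted p over all genes tested, from edgeR's quasi-likelihood fit of these 4 libraries. CPM is not corrected for gene length, so levels are compared between libraries and not between genes. A gene rose or fell where its adjusted p was under 0.05.

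Of 15388 genes tested, 8253 passed (53.6%), with 3847 higher in exVE (25.0%) and 4406 lower (28.6%). Counts on gene lists below are to be read beside these shares. Past 2-fold, the split was 980 higher (6.37%) and 3256 lower (21.2%). The changes grew more one-sided with size: 140 genes rose over 4-fold and 2296 fell over 4-fold. Over 16-fold, 13 rose and 932 fell. The libraries of the groups did not overlap for 80.1% of genes, so separation of 2 libraries from 2 was the rule. On library totals alone, without TMM factors, the median of all genes shifted by -0.29 and the split became 2096 higher and 6198 lower. Without emVE replicate 1, 2878 genes were lower, and without emVE replicate 2, 3067. In the plot of gene levels, the body of genes lay along the diagonal. Most visceral endoderm genes lay above it, and a wide field of genes low in exVE lay below it.

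**Figure D1:**
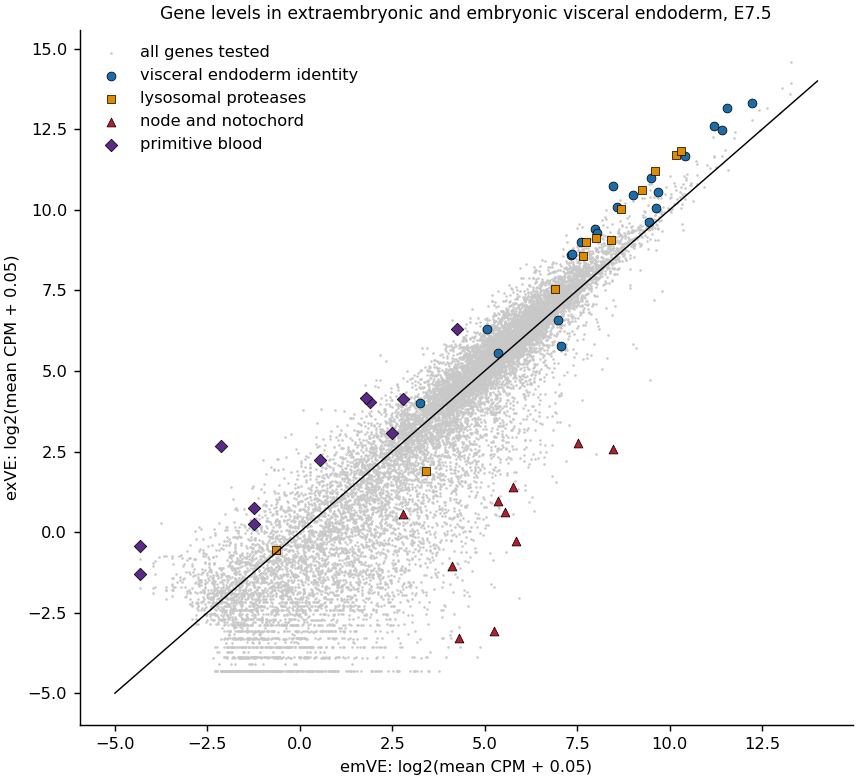
Mean level of each tested gene in emVE (x axis) and exVE (y axis), as log2 of mean CPM plus 0.05, with 4 gene lists marked and a line of equality. Most visceral endoderm genes sit above the line, with Lrp2 at 1629 and 1764 CPM in exVE, but Foxa2 and Sox17 sit below it. All 10 node and notochord genes sit below the line.

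Both groups carried the genes that define visceral endoderm, and most of them were higher in exVE. Of 22 identity genes, 18 rose and 2 fell, 15 of them rising over 2-fold, against 25.0% and 6.37% of all genes that rose and rose over 2-fold. Their median log2 fold change was 1.25, beside -0.036 over all genes tested, and 14 of the 22 lay between 1 and 1.6. Apob, the scaffold protein of lipoproteins, stood at 10072 and 10289 CPM in exVE and 4944 and 4684 CPM in emVE (log2 fold change 1.08, SE 0.091, edgeR adjusted p = 8.96e-05). The nuclear receptor gene Hnf4a, a regulator of visceral endoderm differentiation, stood at 651 and 708 CPM in exVE and 239.9 and 265 CPM in emVE (log2 fold change 1.43, SE 0.09, edgeR adjusted p = 3.48e-05). Both exVE libraries were above both emVE libraries for these genes. Ttr, the thyroxine and retinol carrier, stood at 1480.3 and 1534 CPM in exVE and 746 and 904 CPM in emVE (log2 fold change 0.87, SE 0.11, edgeR adjusted p = 0.000428), a smaller difference than the median of the list.

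Some identity genes broke from that pattern. Afp, the fetal serum protein, stood at 726 and 851 CPM in exVE and 612 and 779 CPM in emVE and did not pass (log2 fold change 0.18, SE 0.13, edgeR adjusted p = 0.279). Its ranges overlapped, with exVE replicate 1 below emVE replicate 2, and it passed without exVE replicate 1 (edgeR adjusted p = 0.0262). The transcription factor gene Gata6 also did not pass, at 47.8 and 46.2 CPM in exVE and 38.9 and 43.6 CPM in emVE (log2 fold change 0.19). Foxa2, a forkhead factor shared by anterior visceral endoderm, node and definitive endoderm, fell, from 126 and 139.8 CPM in emVE to 55.8 and 53.9 CPM in exVE (log2 fold change -1.28, SE 0.091, edgeR adjusted p = 5.11e-05). With all 16 libraries in the fit, where the spread of gut tube libraries enters, 4 of the 22 rose and 1 fell, with a median of 1.33.

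Transcription factors of endoderm divided in both directions. Of 30 tested, 12 rose and 10 fell, beside 25.0% and 28.6% of all genes, and 8 did not pass. Related Sox genes moved apart. Sox7, a partner of Sox17 in primitive endoderm, stood at 47.1 and 58.6 CPM in exVE and 8.39 and 11.2 CPM in emVE (log2 fold change 2.43, SE 0.18, edgeR adjusted p = 5.74e-05). Sox17, which is shared by visceral and definitive endoderm, stood at 104 and 87.5 CPM in exVE and 126 and 127 CPM in emVE and fell slightly (log2 fold change -0.41, SE 0.10, edgeR adjusted p = 0.0112). The libraries did not overlap for either gene, as for 80.1% of all genes. The call of Sox17 was lost without emVE replicate 2 (edgeR adjusted p = 0.0518) and without exVE replicate 2 (edgeR adjusted p = 0.0734), and the count of identity genes that fell was then 1.

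The factors that rose with Sox7 included Creb3l3, a membrane-bound regulator of lipid genes (log2 fold change 1.84), Cited1, a transcriptional co-regulator (1.52), Msx1, a homeobox target of BMP signalling (1.46), Gata4 (1.28) and Mlxipl, a glucose-responsive factor (1.29). Those that fell included Foxa1 (log2 fold change -3.92), Grhl2, a factor of epithelial genes (-3.26), Lhx1 (-1.84), Prox1 (-1.20) and Hhex (-1.06). Foxa1 stood at 7.398 and 5.63 CPM in exVE and 94.5 and 102 CPM in emVE and changed by more than Foxa2. Sall4 fell by less, with a log2 fold change of -0.48. With all 16 libraries in the fit, 8 of the 30 rose and 6 fell.

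**Figure D2:**
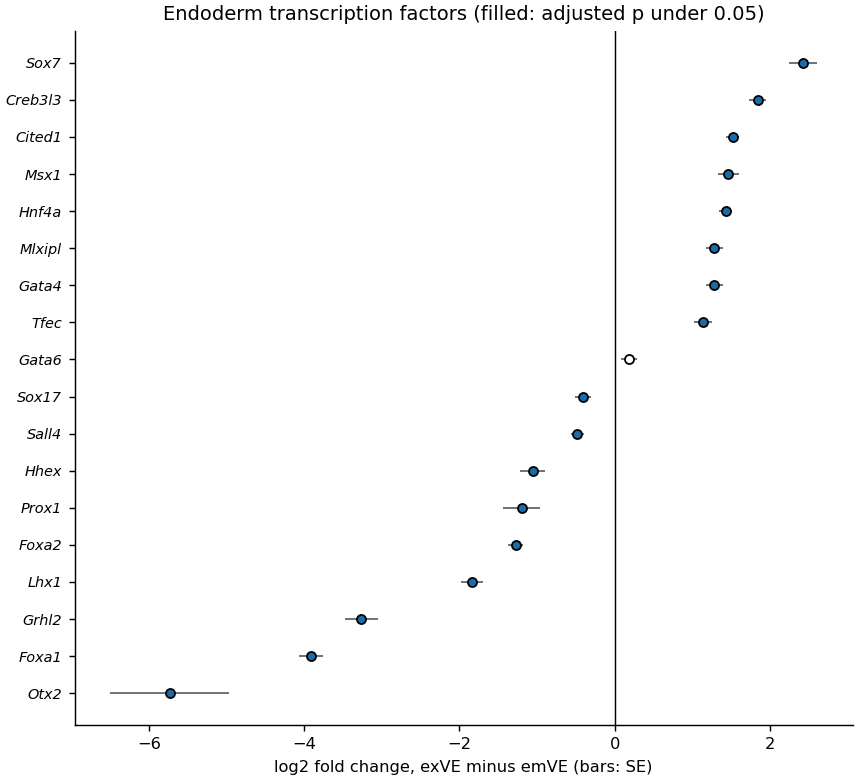
Log2 fold change (x axis, exVE minus emVE, bars are SE) of 18 of the 30 endoderm transcription factor genes tested (y axis), filled where the adjusted p is under 0.05. Those drawn are the ones described in the text. Of the 8 tested that did not pass, only Gata6 is drawn. Sox7 lies at the top at 2.43 and Otx2 at the bottom at -5.74, with Sox17 and Gata6 near the middle.

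Receptors that bring material into the cell were higher in exVE where they belong to the apical uptake complex, and lower for several other receptors. Of 19 endocytic receptors and adaptors tested, 9 rose and 7 fell, beside 25.0% and 28.6% of all genes. Lrp2 (megalin), the large apical receptor for vitamin carriers and lipoproteins, stood at 1629 and 1764 CPM in exVE and 372 and 331 CPM in emVE (log2 fold change 2.27, SE 0.10, edgeR adjusted p = 1.9e-05). Cubn (cubilin), its partner, stood at 8680.2 and 9495 CPM in exVE and 3016 and 3048 CPM in emVE (log2 fold change 1.58, SE 0.095, edgeR adjusted p = 3.14e-05). Amn, which anchors cubilin in the membrane, rose by a log2 fold change of 1.40, and Dab2, the adaptor that links megalin to clathrin, by 1.40. These 4 genes were each higher in both exVE libraries, in a comparison where libraries did not overlap for 80.1% of all genes. With all 16 libraries in the fit, the calls of Cubn, Amn and Dab2 were lost.

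Fcgrt, the neonatal Fc receptor chain that carries immunoglobulin, rose as well (18.1 and 20.1 CPM in exVE and 5.15 and 4.59 CPM in emVE; log2 fold change 1.97, SE 0.18, edgeR adjusted p = 0.000126), as did Scarb1, a lipoprotein receptor (log2 fold change 1.44), and Igf2r, which sorts enzymes to lysosomes (0.96). Receptors that fell included Lrp1 (-1.50), the transferrin receptor gene Tfrc (-1.15), and the sorting receptors Sort1 (-2.37) and Sorl1 (-1.20). Cd36, a fatty acid receptor, had 0 counts in both exVE libraries and 0.598 and 0.613 CPM in emVE, at least 23.6-fold lower if the group as a whole is given 3 counts, the limit that a count of 0 allows. Lrp2 and Lrp1, members of 1 receptor family, thus moved in opposite directions, and Lrp1 stood at 59.4 and 44.9 CPM in exVE and 141 and 154 CPM in emVE.

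The machinery behind the receptors was higher almost throughout. Of 24 genes of the clathrin coat and endosome sorting, 20 rose and 0 fell, with a median log2 fold change of 0.66 and 7 over 2-fold. On library totals alone, 14 rose and 2 fell. The largest difference was in Eea1, the tether of early endosomes, at 179 and 192 CPM in exVE and 55.2 and 51.8 CPM in emVE (log2 fold change 1.79, SE 0.087, edgeR adjusted p = 1.95e-05). Cltb, a clathrin light chain, rose by 1.75 on the log2 scale, Vps26a and Vps35, parts of the retromer that returns receptors, by 1.31 and 1.12, and Cltc, the clathrin heavy chain, by 1.06. Within the Rab5 family, Rab5c rose (log2 fold change 1.23) while Rab5a and Rab5b did not pass (0.22 and -0.044).

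Lysosomal genes rose as a broad set. The lysosome is kept acidic by the vacuolar proton pump, and its hydrolases digest what endocytosis delivers. Over the lists of proton pump, proteases, other hydrolases and membrane proteins together, 74 of 76 genes were tested, of which 54 rose, 22 of them over 2-fold, and 6 fell. TFEB and related factors are known to bind an E-box with the core TCACGTGA near the start of many such genes. This palindrome, which reads the same on both strands, stood in the RefSeq promoters (GRCm38.p6, 250 bases before to 50 after the start) of 8 of the 60 lysosomal and pump genes with a promoter in the table (13.3%), against 222 of 11555 (1.92%) of all tested genes with one. A match describes letters in this window and not binding. The stretches below, from 70 bases before to 20 after the start and on each gene's own strand, are shown for the 5 genes that rose and whose matches all lie in that stretch, with the palindrome in capitals.

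Ctsa (chr2:164833703-164833792, + strand): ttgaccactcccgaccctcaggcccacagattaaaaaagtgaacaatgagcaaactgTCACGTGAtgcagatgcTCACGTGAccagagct
Mcoln1 (chr8:3500449-3500538, + strand): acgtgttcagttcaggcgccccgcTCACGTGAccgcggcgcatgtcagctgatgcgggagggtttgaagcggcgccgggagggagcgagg
Clcn7 (chr17:25133321-25133410, + strand): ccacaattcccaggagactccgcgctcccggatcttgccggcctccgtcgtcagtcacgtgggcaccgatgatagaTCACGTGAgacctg
Atp6v0d1 (chr8:105566045-105566134, - strand): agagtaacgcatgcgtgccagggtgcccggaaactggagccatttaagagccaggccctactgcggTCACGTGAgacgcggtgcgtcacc
Atp6v0e (chr17:26676326-26676415, + strand): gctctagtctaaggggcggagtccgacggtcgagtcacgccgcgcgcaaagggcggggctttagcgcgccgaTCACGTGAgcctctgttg

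The palindrome occurs in 2 copies in the stretch of Ctsa and in 1 copy in the other stretches. The remaining promoters with a match were those of Atp6v1a, Ctsd and Gla, the last with 2 copies. Other motifs were searched on both strands of the same windows. The HNF4-type sequence CAAAGTCCA stood in 0 of 34 promoters of lipoprotein and secreted carrier genes, against 0.502% of all tested genes, and the T-box sequence TCACACCT in 1 of 18 promoters of node and streak markers (5.56%), that of Mesp1, against 1.16%. Of the 8 genes with the palindrome, 7 rose, beside 54 of the 74 lysosomal and pump genes tested. The 7 had log2 fold changes of 1.49 for Atp6v1a, 1.09 for Ctsa, 1.03 for Atp6v0d1, 0.86 for Atp6v0e, 0.79 for Clcn7, 0.72 for Mcoln1 and 0.67 for Ctsd. Gla, a galactosidase, did not pass (0.22). These sizes fell within the range of lysosomal genes without a match.

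Among 18 proton pump genes, 16 rose and 1 fell, with a median log2 fold change of 0.85. Atp6v1a, the catalytic subunit, stood at 514 and 578 CPM in exVE and 189 and 198 CPM in emVE (log2 fold change 1.49, SE 0.089, edgeR adjusted p = 3.12e-05). Atp6v0a1, a membrane subunit, rose by 1.28 on the log2 scale, and Atp6v0b by 1.27. The gene that fell, Atp6v1c2, was barely detected, at 0 and 0.0505 CPM in exVE and 0.755 and 0.362 CPM in emVE, and did not pass without emVE replicate 1 (edgeR adjusted p = 0.167) or emVE replicate 2 (edgeR adjusted p = 0.0656). Its relative Atp6v1c1 rose, at 157 and 179.7 CPM in exVE and 83.7 and 85.7 CPM in emVE (log2 fold change 0.99).

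Of 12 lysosomal proteases tested, 10 rose, 7 over 2-fold, and 1 fell, with a median of 1.17. Ctsb, a cysteine protease, stood at 2294 and 2433 CPM in exVE and 714 and 831 CPM in emVE (log2 fold change 1.61, SE 0.10, edgeR adjusted p = 3.48e-05). Ctsl, of the same class, stood at 3113 and 3549.6 CPM in exVE and 1148 and 1164 CPM in emVE (log2 fold change 1.53, SE 0.10, edgeR adjusted p = 3.48e-05). Lgmn (legumain), which cuts after asparagine and activates cathepsins, stood at 3331 and 3987 CPM in exVE and 1086 and 1441 CPM in emVE (log2 fold change 1.53, SE 0.15, edgeR adjusted p = 0.000169). The 2 exVE libraries lay well above both emVE libraries for all 3 genes. Ctsf was the protease that fell (-1.53), and Ctss, a cathepsin of immune cells, stood at 0.104 and 0.0337 CPM in exVE and 0 and 0 CPM in emVE and was too low to test.

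Of 30 lysosomal sugar and lipid hydrolases, 18 rose and 2 fell, with a median log2 fold change of 0.60, and 16 rose and 6 fell on library totals alone. Neu1, the lysosomal sialidase, stood at 272 and 280.2 CPM in exVE and 90.4 and 87.1 CPM in emVE (log2 fold change 1.64, SE 0.078, edgeR adjusted p = 1.95e-05). Hexa rose by 1.41 and Manba by 1.33 on the log2 scale, both enzymes of glycan breakdown. The 2 that fell were Ids (-1.19), which removes sulfate from glycosaminoglycans, and Gusb (-0.73). Lipa, which frees cholesterol from lipoprotein esters, did not pass at 83.6 and 73.6 CPM in exVE and 71.8 and 77.95 CPM in emVE. Of 14 membrane proteins, 10 rose and 2 fell. Cd63 (log2 fold change 1.41), Lamp2 (1.10) and Lamp1 (1.05) rose the most, and Scarb2 (-1.06) and Laptm4b (-0.45) fell.

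Regulators of lysosome number and of autophagy were mixed, with 10 of 20 rising and 3 falling, and 8 and 5 on library totals alone. Tfeb, which switches on lysosomal genes, stood at 88.02 and 91.3 CPM in exVE and 25.4 and 28.9 CPM in emVE (log2 fold change 1.72, SE 0.10, edgeR adjusted p = 3.22e-05). Tfec and Tfe3, its relatives, rose by 1.14 and 0.70 on the log2 scale, and Mitf, another relative, stood at 1.25 and 1.25 CPM in exVE and 2.801 and 1.91 CPM in emVE and did not pass (log2 fold change -0.91). Rragc and Rragd encode alternative partners in the Rag complex that tethers mTORC1 to lysosomes. They moved apart: Rragc rose (1.31), and Rragd fell, from 29.2 and 20.8 CPM in emVE to 7.62 and 5.52 CPM in exVE (log2 fold change -1.93, SE 0.23, edgeR adjusted p = 0.000418). The core autophagy genes Atg5, Atg7 and Becn1 did not pass, with log2 fold changes of 0.21, 0.11 and 0.23. The plot of fold changes by list shows the lysosomal and endosomal lists lying to the right of the median of all genes with a few members far to the left.

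**Figure D3:**
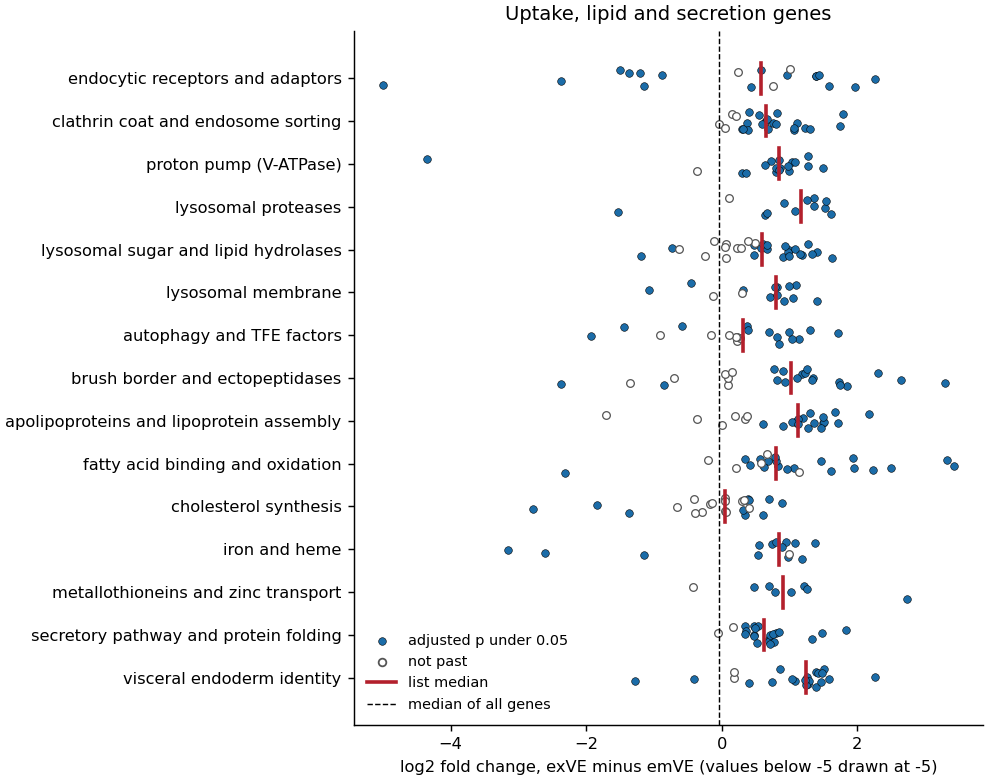
Log2 fold change (x axis, exVE minus emVE) of each tested member of 15 lists (y axis), filled where the adjusted p is under 0.05, with the list median as a bar and the median of all genes (-0.036) as a dashed line. Values below -5 are drawn at -5; list medians run from 0.06 for cholesterol synthesis to 1.25 for visceral endoderm identity.

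The apical surface carries microvilli with their own scaffold and enzymes. Of 24 brush border and ectopeptidase genes tested, 16 rose, 12 over 2-fold, and 2 fell, with a median log2 fold change of 1.02. Dpep1, a dipeptidase of the apical membrane, stood at 14.9 and 13.5 CPM in exVE and 1.26 and 1.603 CPM in emVE (log2 fold change 3.30, SE 0.24, edgeR adjusted p = 5.81e-05). Ggt1, the glutathione-cleaving enzyme, stood at 22.4 and 29.8 CPM in exVE and 4.04 and 4.28 CPM in emVE (log2 fold change 2.65, SE 0.20, edgeR adjusted p = 5.81e-05). Cdhr2 and Cdhr5, cadherins that link the tips of microvilli, rose by 1.74 and 2.31, the scaffold gene Pdzk1 by 1.85 and the bundling protein gene Espn by 1.75. Villin (Vil1) rose by 1.19. Not every ectopeptidase followed: Mme fell (-2.37), Anpep fell (-0.86, but edgeR adjusted p = 0.0938 without emVE replicate 2), and Enpep stood at 16.3 and 17.1 CPM in exVE and 15.96 and 16.4 CPM in emVE and did not pass.

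Lipoprotein genes rose together, with none falling. Of 23 apolipoprotein and assembly genes tested, 17 rose, 15 of them over 2-fold, with a median of 1.13. Apoa4, carried on triglyceride-rich particles, stood at 1267 and 911 CPM in exVE and 386 and 379.8 CPM in emVE (log2 fold change 1.51, SE 0.15, edgeR adjusted p = 0.00016), and both exVE libraries lay above both emVE libraries although they differed from each other. Mttp, which loads lipid onto Apob, stood at 1346 and 1476 CPM in exVE and 499 and 524 CPM in emVE (log2 fold change 1.46, SE 0.087, edgeR adjusted p = 3.11e-05). Dgat2, which makes triglyceride, rose by 1.67 on the log2 scale, Apom by 1.36, Apoa1 by 1.27 and Soat2, which esterifies cholesterol, by 1.13. Dgat1, which also makes triglyceride, did not pass (0.35). With all 16 libraries in the fit, 6 genes of the list rose, at a median of 1.22. Without exVE replicate 1, 16 rose and 2 fell.

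Among the other secreted proteins, Gc, the vitamin D carrier, stood at 17.5 and 18.5 CPM in exVE and 4.15 and 4.99 CPM in emVE (log2 fold change 1.98, SE 0.19, edgeR adjusted p = 0.000149), and Cp, at 0.226 and 0.253 CPM in exVE and 0.268 and 0.223 CPM in emVE, was close to absent in all 4 libraries. The group as a whole was uneven. Of 20 carriers and protease inhibitors tested of 26 listed, 7 rose and 4 fell, beside 25.0% and 28.6% of all genes. Tcn2, which carries vitamin B12, stood at 425 and 475 CPM in exVE and 154 and 184 CPM in emVE (log2 fold change 1.41, SE 0.11, edgeR adjusted p = 6.73e-05). Rbp4, the retinol carrier, stood at 1947 and 2100.3 CPM in exVE and 675 and 771 CPM in emVE (log2 fold change 1.48, SE 0.10, edgeR adjusted p = 4e-05), and the antiplasmin gene Serpinf2 rose by 1.34 on the log2 scale. Hpx, the heme carrier, fell (-2.61), as did the fetuin gene Fetub (-2.20). Alb, the serum albumin gene, was close to 0 in every library, at 0.0348 and 0 CPM in exVE and 0.0315 and 0.112 CPM in emVE. With all 16 libraries in the fit 2 rose and 2 fell. The counts were 5 and 2 without emVE replicate 1, and 7 and 2 without emVE replicate 2.

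Genes of fatty acid binding and oxidation were mostly higher, with 19 of 25 rising and 1 falling, at a median of 0.81. The fatty acid binding proteins split by member. Fabp1, the liver form, stood at 42.3 and 47.3 CPM in exVE and 5.76 and 3.18 CPM in emVE (log2 fold change 3.33, SE 0.26, edgeR adjusted p = 7.07e-05). Fabp2, the intestinal form, stood at 13.02 and 12.5 CPM in exVE and 2.85 and 2.59 CPM in emVE (log2 fold change 2.23), and Fabp3 at 5.48 and 9.75 CPM in exVE and 1.09 and 0.335 CPM in emVE (3.43). Fabp5 moved the other way, at 10.8 and 4.48 CPM in exVE and 39.2 and 36.4 CPM in emVE (log2 fold change -2.31, SE 0.35, edgeR adjusted p = 0.00117). Ehhadh, an enzyme of peroxisomal oxidation, rose by 1.95, and the receptor gene Ppara, at a low level, by 2.50. On library totals alone 15 rose and 2 fell, and without emVE replicate 1 also 15 and 2.

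Cholesterol synthesis did not share this direction. Of 24 genes, 8 rose, none over 2-fold, and 3 fell, at a median of 0.057. Its direction depended on scaling, since on library totals alone 1 rose and 8 fell. Sqle, which commits squalene to sterols, was among those that fell, at 12.1 and 9.33 CPM in exVE and 39.4 and 37.3 CPM in emVE (log2 fold change -1.84, SE 0.16, edgeR adjusted p = 9.29e-05). Hmgcs1, an early enzyme of the pathway, stood at 94.9 and 69.8 CPM in exVE and 112 and 90.4 CPM in emVE and did not pass (-0.30). Only 2 rose without emVE replicate 1, and 5 without emVE replicate 2.

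Genes of iron storage rose, and the receptor for transferrin fell. Of 14 iron and heme genes tested, 10 rose and 3 fell, and 6 rose on library totals alone. The ferritin heavy chain gene Fth1 stood at 4899 and 4864 CPM in exVE and 2090.1 and 2496 CPM in emVE (log2 fold change 1.09, SE 0.11, edgeR adjusted p = 0.000165). Hmox1, which breaks down heme, rose by 1.19, Fech, the last enzyme of heme synthesis, by 1.37, and the iron importer gene Slc11a2 by 0.98. Tfrc stood at 54.6 and 38.7 CPM in exVE and 119 and 87.6 CPM in emVE (log2 fold change -1.15, SE 0.19, edgeR adjusted p = 0.00193), and Heph, a ferroxidase of iron export, fell (-3.16). Among 8 metallothionein and zinc genes, 7 rose and 0 fell, with Mt1, a metal-binding protein gene, at 549 and 538 CPM in exVE and 229.7 and 239 CPM in emVE (log2 fold change 1.21, SE 0.076, edgeR adjusted p = 3.49e-05) and the manganese exporter gene Slc30a10 at 4.73 and 2.91 CPM in exVE and 0.315 and 0.822 CPM in emVE (2.74). With all 16 libraries in the fit 2 of these 8 rose, and without exVE replicate 1, 7 rose and 1 fell.

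Vitamin genes rose on the uptake side and split for retinoids. Of 21 genes, 12 rose and 5 fell. The folate receptor gene Folr1 stood at 311 and 324 CPM in exVE and 105 and 122 CPM in emVE (log2 fold change 1.49, SE 0.10, edgeR adjusted p = 3.74e-05), and the vitamin C transporter gene Slc23a1 rose by 1.36. Rdh10 and Aldh1a2 carry out the successive steps from retinol to retinoic acid, and Cyp26a1 degrades the product. Rdh10 rose (1.31), and Cyp26a1 stood at 139 and 185 CPM in exVE and 67.6 and 75.7 CPM in emVE (log2 fold change 1.17, SE 0.14, edgeR adjusted p = 0.000389). Aldh1a2 stood at 0.313 and 0.0674 CPM in exVE and 72.03 and 50.2 CPM in emVE (log2 fold change -8.33, SE 0.40, edgeR adjusted p = 1.95e-05). Stra6, a receptor for retinol-loaded Rbp4, fell (-5.23), as did the binding protein gene Crabp1 (-2.90). Aldh1a2 is also a mesoderm gene, and other mesoderm markers fell with it, 11 of 12 with Aldh1a2 among them, whose part in the result was not tested.

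Genes of the secretory pathway rose by small amounts, 20 of 22 with 0 falling and a median of 0.62, and 11 of them on library totals alone. Sec24d, a coat protein of export vesicles, stood at 98.5 and 111 CPM in exVE and 36.8 and 37.9 CPM in emVE (log2 fold change 1.49, SE 0.10, edgeR adjusted p = 3.88e-05), and Herpud1, a gene of endoplasmic reticulum stress, rose by 1.34. The chaperone genes Hspa5 and Hsp90b1 rose by 0.47 and 0.48, neither passing on library totals alone. Of 21 sugar metabolism genes, 8 rose and 5 fell, and on library totals alone 6 and 8. Ldhb, a lactate dehydrogenase chain, stood at 20.1 and 17.7 CPM in exVE and 71.1 and 72.5 CPM in emVE (log2 fold change -1.93, SE 0.11, edgeR adjusted p = 2.66e-05). For the sugar genes the counts were 8 and 3 without emVE replicate 1, and 7 and 3 without emVE replicate 2.

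The anterior visceral endoderm is a signalling domain of emVE that secretes antagonists of Nodal and Wnt. Of 14 of its genes, 13 fell in exVE and 1 rose, all past 2-fold, against 21.2% of all genes that fell over 2-fold. Cer1, an antagonist of Nodal, BMP and Wnt, stood at 9.63 and 0.9095 CPM in exVE and 291 and 230.0 CPM in emVE (log2 fold change -5.63, SE 0.77, edgeR adjusted p = 0.000715). Otx2, a head-organising homeobox factor, stood at 2.89 and 0.135 CPM in exVE and 89.97 and 70.1 CPM in emVE (log2 fold change -5.74, SE 0.77, edgeR adjusted p = 0.000652). Hesx1, a homeobox repressor, stood at 1.53 and 1.09 CPM in exVE and 23.4 and 19.5 CPM in emVE (log2 fold change -4.03, SE 0.25, edgeR adjusted p = 3.27e-05). All emVE libraries were far above both exVE libraries, and exVE replicate 1 held more Cer1 and Otx2 than replicate 2. Without exVE replicate 1 the log2 fold change of Otx2 was -9.20.

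Among the other anterior genes, the Wnt antagonist Sfrp1 stood at 8.04 and 1.11 CPM in exVE and 159 and 135 CPM in emVE, Shisa2, which retains Wnt and FGF receptors, at 3.76 and 1.11 CPM in exVE and 72.03 and 64.3 CPM in emVE, and Dkk1, which blocks Wnt co-receptors, at 15.3 and 12.1 CPM in exVE and 77.4 and 66.02 CPM in emVE (log2 fold change -2.39, SE 0.15, edgeR adjusted p = 3.44e-05). Lefty1 and Gsc had 0 counts in both exVE libraries and were low in emVE, at 0.409 and 0.767 and 0.8498 and 0.307 CPM, at least 22.9-fold and 22.5-fold lower. The call of Lefty1 was lost without emVE replicate 2 (edgeR adjusted p = 0.0634) and that of Gsc without emVE replicate 1 (edgeR adjusted p = 0.0853). The exception was Cyp26a1, higher in exVE as given above. Hesx1 also stands on the neural plate marker list, of which 8 of 9 tested fell. The part of other cell types in the emVE libraries in these falls was not tested.

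BMP and Nodal ligands, their receptors and their targets did not move together. Of 11 ligand and co-receptor genes tested, 1 rose and 7 fell. Bmp6 was the riser, at 49.9 and 55.5 CPM in exVE and 11.5 and 9.97 CPM in emVE (log2 fold change 2.30, SE 0.13, edgeR adjusted p = 2.67e-05). Bmp2, known as a BMP of visceral endoderm, stood at 36.05 and 24.8 CPM in exVE and 57.98 and 53.9 CPM in emVE (log2 fold change -0.88, SE 0.17, edgeR adjusted p = 0.00384). Bmp5 stood at 0.853 and 0.573 CPM in exVE and 10.5 and 13.6 CPM in emVE (log2 fold change -4.08, SE 0.32, edgeR adjusted p = 6.54e-05), while Bmp4, from extraembryonic ectoderm and mesoderm, and Bmp7 did not pass (0.56 and -0.054), although Bmp4 did without exVE replicate 2 (edgeR adjusted p = 0.0073). Bmp6 and Bmp5 are closely related ligands, and Bmp6 was high in exVE where Bmp5 was low.

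Nodal itself stood at 0.731 and 0.539 CPM in exVE and 9.76 and 8.697 CPM in emVE (log2 fold change -3.86, SE 0.31, edgeR adjusted p = 7.27e-05), its antagonist Lefty2 at 0.104 and 0.0337 CPM in exVE and 7.33 and 9.798 CPM in emVE and its co-receptor Tdgf1 at 0.0696 and 0 CPM in exVE and 3.02 and 2.68 CPM in emVE. Tgfb2 fell as well (-4.23). Of 15 receptors and Smads, 2 rose and 6 fell. Among the Smads that relay BMP signals, Smad1 rose (0.51, not passing on library totals alone) and Smad5 fell, at 25.7 and 25.7 CPM in exVE and 75.3 and 63.5 CPM in emVE (log2 fold change -1.43, SE 0.12, edgeR adjusted p = 7.4e-05). For Nodal signals, Smad3 fell, at 10.8 and 5.996 CPM in exVE and 60.9 and 59.6 CPM in emVE (log2 fold change -2.84, SE 0.25, edgeR adjusted p = 0.000106), whereas Smad2 and the common partner Smad4 did not pass (0.14 and -0.034). On library totals alone 0 of the 15 rose and 10 fell. Without exVE replicate 1, 1 rose and 5 fell, and without emVE replicate 2 also 1 and 5.

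Among 16 BMP targets and extracellular inhibitors, 4 rose and 9 fell. The 4 that rose were all intracellular targets: Id2 at 224 and 207 CPM in exVE and 102 and 112 CPM in emVE (log2 fold change 1.01, SE 0.089, edgeR adjusted p = 0.000107), Msx1 at 249 and 229 CPM in exVE and 74.3 and 99.00 CPM in emVE (log2 fold change 1.46, SE 0.14, edgeR adjusted p = 0.000133), and the inhibitory Smads Smad6 (1.01) and Smad7 (0.74). Intracellular targets did not all rise. Id3 did not pass (0.084), and none of Id1, Id4 and Msx2 rose. The genes of the list that fell were not only secreted inhibitors and Bambi, a decoy receptor (-1.47). The secreted inhibitors fell: Chrd (-4.40), Nog (-5.33), Fst (-5.59), Bmper (-2.45) and Twsg1 (-1.31). Chrd and Nog are also node genes, and 10 of 10 node markers fell with them.

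In the Hedgehog pathway, Ihh rose, whereas Shh, another ligand, and the targets Ptch1, Gli1 and Hhip fell. Of 14 genes tested, 2 rose and 11 fell, at a median of -3.60. Ihh, the ligand made by visceral endoderm, stood at 77.7 and 80.1 CPM in exVE and 27.4 and 39.5 CPM in emVE (log2 fold change 1.24, SE 0.17, edgeR adjusted p = 0.000638). Its receptor and target Ptch1 stood at 38.4 and 34.2 CPM in exVE and 159.7 and 174 CPM in emVE (log2 fold change -2.20, SE 0.10, edgeR adjusted p = 1.9e-05), the target Gli1 at 0.278 and 0.202 CPM in exVE and 17.2 and 25.9 CPM in emVE (log2 fold change -6.48, SE 0.34, edgeR adjusted p = 2.24e-05) and the target Hhip at 0.557 and 0.438 CPM in exVE and 12.6 and 11.6 CPM in emVE (log2 fold change -4.60, SE 0.28, edgeR adjusted p = 3.32e-05). The groups were apart for each of these genes, as for 80.1% of all genes.

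The transducers Gli2 (-4.50), Gli3 (-4.35) and Smo (-1.14) fell, as did the co-receptors Boc (-5.20), Cdon (-1.27) and Gas1 (-3.12). Hhat, which attaches the lipid to Hedgehog ligands, rose (log2 fold change 0.93, SE 0.26, edgeR adjusted p = 0.0179), but not without emVE replicate 1 (edgeR adjusted p = 0.061), without emVE replicate 2 (edgeR adjusted p = 0.102) or on library totals alone, where 1 gene of the list rose. Shh, the ligand of the midline, stood at 0.104 and 0 CPM in exVE and 17.2 and 22.1 CPM in emVE.

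FGF genes divided between receptors. Fgfr3 stood at 60.1 and 68.4 CPM in exVE and 36.98 and 41.3 CPM in emVE (log2 fold change 0.71, SE 0.11, edgeR adjusted p = 0.00132), and Fgfr4 at 79.4 and 91.9 CPM in exVE and 43.3 and 48.1 CPM in emVE (log2 fold change 0.91, SE 0.11, edgeR adjusted p = 0.000407). Fgfr1 stood at 46.3 and 35.6 CPM in exVE and 191 and 216 CPM in emVE (log2 fold change -2.31, SE 0.14, edgeR adjusted p = 3.14e-05), and Fgfr2 at 18.7 and 17.9 CPM in exVE and 65.5 and 69.3 CPM in emVE (log2 fold change -1.88, SE 0.10, edgeR adjusted p = 2.41e-05). Fgfr3 and Fgfr4 were thus higher in exVE and Fgfr1 and Fgfr2 lower, with no overlap between groups, as for 80.1% of all genes. Among targets and feedback inhibitors of the pathway, Spry4 rose modestly (log2 fold change 0.79), as did Etv4 (0.74), Dusp6 (0.70) and Etv5 (0.54). Spred1 fell (-0.44), Spry1 did not pass (0.015) and Spry2 did not rise. With all 16 libraries in the fit, the calls of Fgfr3, Etv4 and Spred1 were lost. The epiblast ligand Fgf5 stood at 1.11 and 0.472 CPM in exVE and 17.96 and 12.8 CPM in emVE, and Fgf4 had 0 counts in both exVE libraries, at least 66.00-fold lower. In all, 6 of 18 rose and 8 fell, beside 25.0% and 28.6% of all genes.

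Wnt genes were mostly lower in exVE. Of 23 ligands and receptors, 3 rose and 16 fell, and of 15 targets and inhibitors, 0 rose and 10 fell. The Frizzled receptors split, with Fzd4 at 89.05 and 108 CPM in exVE and 32.04 and 32.5 CPM in emVE (log2 fold change 1.61, SE 0.12, edgeR adjusted p = 5.32e-05) and Fzd7 at 46.6 and 46.4 CPM in exVE and 144 and 144 CPM in emVE (log2 fold change -1.63, SE 0.082, edgeR adjusted p = 2.06e-05). Fzd2 stood at 6.09 and 3.82 CPM in exVE and 90.3 and 105 CPM in emVE (log2 fold change -4.30, SE 0.22, edgeR adjusted p = 2.06e-05). Fzd1, Fzd3, Fzd5, Fzd6, Fzd8 and Fzd10 also fell, with log2 fold changes from -3.09 (Fzd3) to -0.60 (Fzd1), so that 1 of 9 Frizzled genes on the list rose and 8 fell. The call of Fzd1 was lost without emVE replicate 1 (edgeR adjusted p = 0.186), emVE replicate 2 (0.0863) or exVE replicate 2 (0.0703). The co-receptor Lrp5 rose, at 421 and 475 CPM in exVE and 189 and 222 CPM in emVE (log2 fold change 1.12, SE 0.11, edgeR adjusted p = 0.000137), and Lrp6 did not pass (-0.015).

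The Wnt target genes Lef1 and Sp5 stood at 6.09 and 5.86 CPM in exVE and 42.03 and 44.4 CPM in emVE and at 11.7 and 6.16 CPM in exVE and 77.9 and 88.00 CPM in emVE. Axin2, a target found in many tissues, fell by less (log2 fold change -0.61, SE 0.14, edgeR adjusted p = 0.00848), and not without emVE replicate 2 (edgeR adjusted p = 0.0602). Znrf3, which removes Wnt receptors, did not pass (-0.01). The ligand Wnt8a had 0 counts in both exVE libraries and 10.2 and 6.75 CPM in emVE, at least 331-fold lower. In the fit that left out exVE replicate 2, and in the unfiltered fit, 1 of the targets and inhibitors rose.

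**Figure D4:**
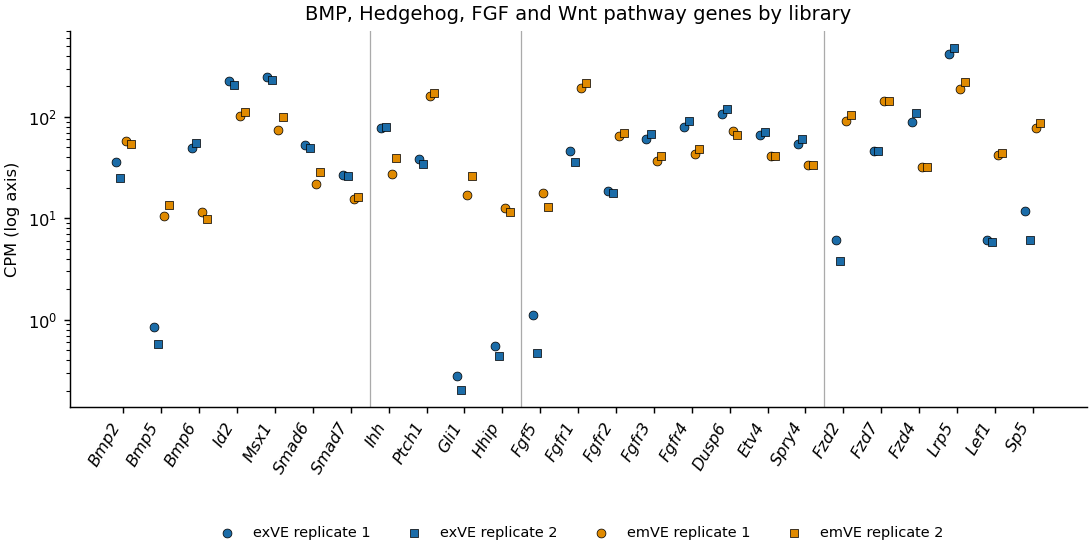
Level in CPM (y axis, log axis) of 25 signalling genes in each of the 4 libraries (blue exVE, orange emVE, circles replicate 1, squares replicate 2), set apart by lines into BMP, Hedgehog, FGF and Wnt genes. Bmp6, Ihh, Fgfr3, Fgfr4, Fzd4 and Lrp5 sit higher in exVE, and Bmp5, Ptch1, Gli1, Fgfr1, Fgfr2, Fzd2 and Fzd7 sit higher in emVE. The BMP targets drawn, Id2, Msx1, Smad6 and Smad7, are those of their list that rose.

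Secreted factors of vessels gave another pair of related ligands that moved apart. Apln and Apela both activate the apelin receptor. Apln stood at 277 and 357 CPM in exVE and 77.8 and 60.2 CPM in emVE (log2 fold change 2.20, SE 0.16, edgeR adjusted p = 5.53e-05), and Apela stood at 14.9 and 5.12 CPM in exVE and 146 and 162 CPM in emVE (log2 fold change -3.95, SE 0.42, edgeR adjusted p = 0.000221). Vegfa stood at 143 and 149 CPM in exVE and 134 and 154 CPM in emVE and did not pass, while on library totals alone it was lower in exVE (log2 fold change -0.27, edgeR adjusted p = 0.0349). Among growth factors, Igf2 rose, at 3000.4 and 3063 CPM in exVE and 1374 and 1502 CPM in emVE (log2 fold change 1.08, SE 0.088, edgeR adjusted p = 7.95e-05). Pdgfa fell (-3.33) and Pdgfb rose (1.73), and the receptor gene Pdgfra rose, at 165 and 186 CPM in exVE and 70.98 and 73.3 CPM in emVE (log2 fold change 1.28, SE 0.091, edgeR adjusted p = 5.11e-05). In all, 4 of 17 rose and 7 fell, beside 25.0% and 28.6% of all genes. The counts were 3 and 4 without emVE replicate 1, and 4 and 4 without emVE replicate 2.

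Both tissues are epithelia, yet their junction genes differed. Of 28 junction and keratin genes, 8 rose and 14 fell, and 5 and 17 on library totals alone. The claudins split by member: Cldn2, of leaky junctions, stood at 419.7 and 518 CPM in exVE and 171 and 192 CPM in emVE (log2 fold change 1.37, SE 0.12, edgeR adjusted p = 9.76e-05), and Cldn4 at 3.48 and 0.505 CPM in exVE and 32.4 and 31.2 CPM in emVE (log2 fold change -4.00, SE 0.66, edgeR adjusted p = 0.0017). Cldn7 rose by less (0.60), and Cldn8 and Cldn9 fell (-4.72 and -2.53). Krt8 and Krt18, the keratins of simple epithelia, fell, with log2 fold changes of -1.05 and -0.90, as did Krt7 and Krt19, with -3.58 and -3.39. E-cadherin (Cdh1) stood at 537 and 533 CPM in exVE and 859 and 796 CPM in emVE (log2 fold change -0.63, SE 0.08, edgeR adjusted p = 0.000519). The splicing regulators of epithelia, Esrp1 and Esrp2, moved in opposite directions (-0.95 and 1.04).

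Of 13 genes of epithelial to mesenchymal transition tested, 1 rose and 11 fell. Cdh2 (N-cadherin) stood at 3.78 and 1.600 CPM in exVE and 76.1 and 60.5 CPM in emVE (log2 fold change -4.67, SE 0.35, edgeR adjusted p = 5.86e-05), and Snai1, a repressor of E-cadherin, at 6.27 and 6.703 CPM in exVE and 17.4 and 18.9 CPM in emVE (log2 fold change -1.48, SE 0.17, edgeR adjusted p = 0.000328). Pdgfra was the gene that rose. Only 6 fell without emVE replicate 1, and 7 without emVE replicate 2.

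Cell cycle genes changed little apart from regulators of entry. Of 22 genes, 5 rose and 10 fell, 3 of them over 2-fold, beside 25.0% and 28.6% of all genes that rose and fell. On library totals alone 0 rose and 15 fell. Mki67, a marker of cycling cells, stood at 438 and 512 CPM in exVE and 502 and 494 CPM in emVE and did not pass. The cyclin D genes split: Ccnd1 stood at 13.6 and 7.21 CPM in exVE and 79.9 and 101 CPM in emVE (log2 fold change -3.12, SE 0.28, edgeR adjusted p = 0.000113), Ccnd2 at 27.6 and 10.4 CPM in exVE and 121 and 139 CPM in emVE (log2 fold change -2.77, SE 0.38, edgeR adjusted p = 0.000741) and Ccnd3 at 159 and 148 CPM in exVE and 97.7 and 115 CPM in emVE (log2 fold change 0.53, SE 0.10, edgeR adjusted p = 0.00369). Ccnd3 did not pass on library totals alone (log2 fold change 0.23). Without emVE replicate 2, 3 genes of the list rose and 9 fell. The imprinted cell cycle inhibitor gene Cdkn1c fell (log2 fold change -1.68, SE 0.15, edgeR adjusted p = 0.000121).

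Immediate early genes, which enzyme dissociation can induce, were lower in exVE for several members, with 8 of 17 falling and 3 rising. Fos stood at 6.32 and 2.91 CPM in exVE and 24.6 and 27.8 CPM in emVE (log2 fold change -2.51, SE 0.33, edgeR adjusted p = 0.000603), Jun at 11.1 and 7.17 CPM in exVE and 38.1 and 42.9 CPM in emVE (log2 fold change -2.15, SE 0.21, edgeR adjusted p = 0.000163) and Egr1 at 6.18 and 4.38 CPM in exVE and 18.8 and 29.00 CPM in emVE (log2 fold change -2.18, SE 0.27, edgeR adjusted p = 0.000426), whereas Junb rose (1.00). The heat shock gene Hspa1b stood at 0.748 and 0.6400 CPM in exVE and 0.567 and 0.516 CPM in emVE and did not pass. Mitochondrially encoded transcripts took 6.65% and 5.75% of counts in exVE and 5.48% and 4.77% in emVE, and 8 of 10 such genes rose. The part of dissociation and RNA quality in the results was not tested.

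Extraembryonic tissues carry less DNA methylation than the epiblast. Of 16 genes of the DNA methylation machinery, 1 rose and 6 fell, none over 2-fold, beside 25.0% and 28.6% of all genes that rose and fell. Dnmt1 stood at 284 and 275 CPM in exVE and 286 and 286 CPM in emVE and Dnmt3b at 464 and 509 CPM in exVE and 485 and 361 CPM in emVE, and neither passed, although Dnmt3b did without emVE replicate 1 (edgeR adjusted p = 0.0253). The counts were 2 and 4 without emVE replicate 1, and 2 and 3 without emVE replicate 2. Of 16 germline genes tested of 20 listed, 6 rose and 0 fell, beside 25.0% of all genes that rose. Ddx4 (Vasa) stood at 22.4 and 19.9 CPM in exVE and 6.83 and 5.56 CPM in emVE (log2 fold change 1.77, SE 0.18, edgeR adjusted p = 0.0002), and the X-linked homeobox genes Rhox5 and Rhox6 stood at 612 and 630.0 CPM in exVE and 256 and 269.6 CPM in emVE (log2 fold change 1.24, SE 0.078, edgeR adjusted p = 3.48e-05) and at 11.2 and 10.00 CPM in exVE and 2.86 and 3.74 CPM in emVE (log2 fold change 1.68, SE 0.24, edgeR adjusted p = 0.000939). Dazl and Sycp1 did not pass (2.24 and 0.65). With all 16 libraries in the fit 3 rose, and without exVE replicate 1, 5 rose and 2 fell.

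Among the genes with the largest increases by the naming rule, some stood on no list. Scube2, a secreted protein that helps release Hedgehog ligands, stood at 15.7 and 11.7 CPM in exVE and 0.614 and 1.39 CPM in emVE (log2 fold change 3.76, SE 0.40, edgeR adjusted p = 0.000237). Dppa2, a chromatin factor of pluripotent cells, stood at 6.96 and 9.33 CPM in exVE and 0.881 and 0.725 CPM in emVE (log2 fold change 3.34, SE 0.32, edgeR adjusted p = 0.000145), and Aqp8, a water channel of intestine and liver, at 37.7 and 41.3 CPM in exVE and 5.08 and 4.93 CPM in emVE (log2 fold change 2.98, SE 0.14, edgeR adjusted p = 1.95e-05). The emVE libraries held low but measurable levels of each. Dram1, a lysosomal membrane protein of autophagy, stood at 85.6 and 108 CPM in exVE and 17.9 and 16.4 CPM in emVE (log2 fold change 2.49, SE 0.14, edgeR adjusted p = 2.39e-05), Pgc, which encodes the protease precursor pepsinogen C, rose by 2.56, and the homeobox gene Pitx1 by 2.40. Susd3 (2.87), Slc25a45 (2.57) and Card14 (2.49) completed the group beside Fabp1, Dpep1, Ggt1 and Sox7, and the rule also named 2 genes given with the blood and endothelial markers.

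The largest decreases were of genes near 0 in exVE. Gal, a neuropeptide gene, had 0 counts in both exVE libraries and 12.6 and 14.4 CPM in emVE, at least 526-fold lower by the same limit of 3 counts. Meox1, a somite gene, was at least 351-fold lower. Several others encode parts of motile cilia: Spef2, Efcab1, Lrrc23 and Dynlrb2 had 0 counts in both exVE libraries and stood between 7.94 and 13.8 CPM in emVE, and Tekt1, Cfap206 and Tppp3 stood at 0.0348 and 0, 0.0696 and 0 and 0 and 0.0674 CPM in exVE against 15.6 and 15.1, 22.5 and 17.8 and 31.8 and 26.8 CPM in emVE. Foxj1, the regulator of motile cilia that the node carries, stood at 8.11 and 5.49 CPM in exVE and 187 and 184 CPM in emVE (log2 fold change -4.77, SE 0.18, edgeR adjusted p = 1.88e-05).

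Markers of neighbouring cell types moved on both sides of the comparison. In bulk libraries, fewer cells of a type and less RNA per cell cannot be told apart. On the emVE side stood the axial midline: all 10 node and notochord markers fell in exVE, at a median of -5.14, and their summed level was 26.2 and 16.8 CPM in exVE against 827 and 815 CPM in emVE. T (Brachyury) stood at 7.45 and 4.46 CPM in exVE and 361 and 348 CPM in emVE (log2 fold change -5.90, SE 0.22, edgeR adjusted p = 1.88e-05) and Noto, a homeobox gene of the notochord, at 0.139 and 0 CPM in exVE and 38.6 and 38.2 CPM in emVE. Of 9 definitive endoderm markers tested, 5 fell, among them the neuropeptide gene Trh at 39.7 and 13.4 CPM in exVE and 670.4 and 746 CPM in emVE (log2 fold change -4.74, SE 0.45, edgeR adjusted p = 0.000143) and Cxcr4 at 1.04 and 0.808 CPM in exVE and 25.2 and 33.6 CPM in emVE (log2 fold change -4.99, SE 0.24, edgeR adjusted p = 1.95e-05), while Spink1 and Nepn were among those that did not pass. Their summed level was 619 and 558 CPM in exVE, most of it Spink1 at 523 and 491 CPM, against 1318 and 1447 CPM in emVE.

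Epiblast and streak markers fell in 12 of 16 cases and embryonic mesoderm markers in 11 of 12. Pou5f1 stood at 2.54 and 1.21 CPM in exVE and 92.4 and 53.6 CPM in emVE (log2 fold change -5.28, SE 0.38, edgeR adjusted p = 5.54e-05), and the streak gene Tbx6 at 1.57 and 0.505 CPM in exVE and 37.7 and 26.7 CPM in emVE (log2 fold change -4.96, SE 0.45, edgeR adjusted p = 0.000117). The summed levels of the epiblast list, 490 and 532 CPM in exVE and 709 and 518 CPM in emVE, were mostly Dnmt3b. The mesoderm list summed to 171 and 190 CPM in exVE, almost all from Pdgfra, against 256 and 236 CPM in emVE, and its median was -5.81, or -5.30 with genes at 0 set to their bound. Of the epiblast and streak markers, 1 rose without emVE replicate 1. Of 9 neural plate markers tested, 8 fell and 1 rose, En1, at 6.86 and 7.88 CPM in exVE and 1.61 and 1.37 CPM in emVE (log2 fold change 2.31, SE 0.28, edgeR adjusted p = 0.000433). The part of these cells in the results for signalling, cilia and mesenchymal genes was not tested. Nor was their part in the higher levels of identity, uptake, lysosomal and lipid genes in exVE.

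Primitive blood markers were higher in exVE. Of 11 tested, 9 rose, against 25.0% of all genes, and their summed level was 187 and 120 CPM in exVE against 38.0 and 43.7 CPM in emVE. Runx1, which marks blood progenitors, made up a large part of these sums and was the steadiest. Its levels were 81.8 and 74.9 CPM in exVE and 18.1 and 19.8 CPM in emVE (log2 fold change 2.05, SE 0.11, edgeR adjusted p = 2.31e-05). Tal1 stood at 28.3 and 7.34 CPM in exVE and 1.83 and 4.96 CPM in emVE (log2 fold change 2.39, SE 0.66, edgeR adjusted p = 0.018), Gfi1b at 10.4 and 2.29 CPM in exVE and 0.0787 and 0.279 CPM in emVE (log2 fold change 5.11, SE 0.87, edgeR adjusted p = 0.00205) and the embryonic globin Hbb-bh1 at 17.7 and 15.1 CPM in exVE and 2.72 and 4.68 CPM in emVE (log2 fold change 2.15, SE 0.28, edgeR adjusted p = 0.000608). The exVE libraries thus lay far apart for Tal1 and Gfi1b and close together for Runx1 and Hbb-bh1. Tal1 did not pass without emVE replicate 1 (edgeR adjusted p = 0.127), and its log2 fold change was 1.10 without exVE replicate 1. Without emVE replicate 1, 3 blood markers rose, and without emVE replicate 2, 4.

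Endothelial markers were less uniform. Of 10 tested, 4 rose, against 25.0% of all genes, with a summed level of 123 and 66.1 CPM in exVE against 44.7 and 61.8 CPM in emVE. Cdh5 stood at 16.2 and 4.78 CPM in exVE and 0.598 and 2.06 CPM in emVE (log2 fold change 2.97, SE 0.70, edgeR adjusted p = 0.00932) and Pecam1 at 9.695 and 5.96 CPM in exVE and 1.35 and 2.08 CPM in emVE (log2 fold change 2.19, SE 0.36, edgeR adjusted p = 0.00177), while Kdr, at 20.5 and 7.87 CPM in exVE and 7.76 and 14.01 CPM in emVE, did not pass and Emcn was at 0 in all 4. Cdh5 did not pass without emVE replicate 1 (edgeR adjusted p = 0.0666) and had a log2 fold change of 1.83 without exVE replicate 1, and Kdr passed without exVE replicate 2 (edgeR adjusted p = 3.41e-05). Without emVE replicate 1, 1 endothelial marker rose; without exVE replicate 2, 8 rose; and without exVE replicate 1, 5 rose and 1 fell.

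Of 13 trophoblast markers tested, 5 rose and 1 fell, beside 25.0% and 28.6% of all genes. The trophoblast stem cell gene Elf5 stood at 4.19 and 0.573 CPM in exVE and 0.472 and 0.669 CPM in emVE and did not pass, except without exVE replicate 2 (edgeR adjusted p = 2.12e-09), and Tpbpa, Prl3d1 and Prl3b1, of differentiated trophoblast, were at 0 in all 4 libraries. Plac1, at 52.9 and 53.8 CPM in exVE and 14.6 and 19.8 CPM in emVE (log2 fold change 1.63, SE 0.16, edgeR adjusted p = 0.000145), rose, as did Rhox6. Without exVE replicate 1, 3 trophoblast markers rose and 4 fell; without exVE replicate 2, 8 rose; without emVE replicate 1, 2 rose and 2 fell; and without emVE replicate 2, 3 rose. Of 12 parietal endoderm markers, 5 rose and 4 fell. Sparc, of basement membranes, stood at 789.7 and 921 CPM in exVE and 436 and 481 CPM in emVE (log2 fold change 0.90, SE 0.10, edgeR adjusted p = 0.000296) and Plat, a protease of parietal endoderm, at 3.38 and 2.26 CPM in exVE and 35.1 and 39.7 CPM in emVE (log2 fold change -3.73, SE 0.22, edgeR adjusted p = 2.87e-05). Ptprc, of maternal immune cells, and Prl8a2, of decidua, were at 0 in all 4.

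The exVE libraries differed in these traces. All 10 endothelial, 9 of 11 blood, 10 of 13 trophoblast and 9 of 10 node markers tested were higher in exVE replicate 1 than in replicate 2, against 50.1% of all genes. By over 2-fold, 6, 6, 6 and 4 of them were, against 9.96% of all genes. Of the 22 identity genes, 6 were higher in replicate 1 and 0 by over 2-fold. The difference was not limited to the marker lists. Over 2-fold higher in replicate 1 were 7 of 17 secreted vascular, 5 of 13 mesenchymal transition, 5 of 14 Hedgehog and 4 of 14 anterior genes. Other function lists lacked it, with 0 of 24 clathrin coat and endosome sorting genes. The plot of summed marker levels shows a gap for blood, endothelium, node and extraembryonic mesoderm, although only 5 of 9 extraembryonic mesoderm markers were higher in replicate 1. By over 2-fold, 7 of 16 epiblast and streak, 5 of 12 embryonic mesoderm and 3 of 9 definitive endoderm markers were also higher there. The summed levels of the epiblast and embryonic mesoderm lists were not. The part of these cells in the blood, endothelial and anterior results was not tested.

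**Figure D5:**
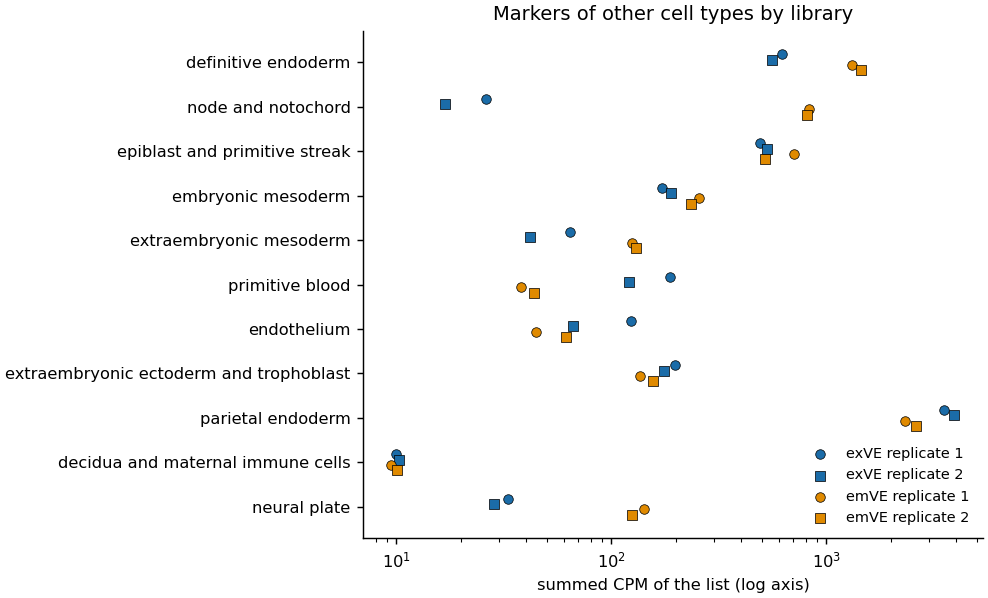
Summed CPM (x axis, log axis) of marker lists of 11 other cell types (y axis) in each library (blue exVE, orange emVE, circles replicate 1, squares replicate 2). Node and notochord markers sum to 26.2 and 16.8 CPM in exVE against 827 and 815 CPM in emVE, and primitive blood markers to 187 and 120 CPM against 38.0 and 43.7 CPM.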

How the data were processed

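Polyadenylated RNA was measured in 2 exVE and 2 emVE libraries at E7.5. The authors deposited raw counts per gene symbol, 1 file per library, in whole numbers whose totals differ between libraries. The submitters' processing notes name STAR. The sources used here do not give its version, the build, annotation, strand setting or counting program, so overlapping and near-identical genes are uncertain. Of 26795 entries, 32 repeated symbols were summed, leaving 26761 symbols. Mouse gene tables held 25593 of them.

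After filterByExpr by group (count of at least 10, total of at least 15), 15388 were tested with glmQLFit and glmQLFTest in edgeR 4.0.16 (R 4.3.3) with TMM factors, two-sided (2 residual and 5.46 prior degrees of freedom, common dispersion 0.0301). The SE is the size of the log2 fold change divided by the square root of F. For a gene at 0 in both libraries of a group, the fold was computed with 3 counts in the group as a whole. Levels and floors cover counting error only. Replicates differed by more than counting noise (chi-square per gene 29.3 and 29.0) and were kept as 2 libraries. The labels number replicates in both groups without saying what a number marks, so numbers were not used as pairs.

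The 46 lists hold 740 genes, of which 699 were tested; 64 stand on more than 1 list. Members and lists were chosen with earlier results of these data known, and calls on lists are counts, with no test of a list. Named genes are list members and, in each direction, the 15 largest changes with non-overlapping libraries and, in the higher group, a mean log2 CPM of 3 or more, leaving out unnamed predicted genes. Some named genes are not reported here. Alternatives were RLE size factors, library totals alone, no filter, a replicate block, all 16 libraries in the fit, DESeq2 1.42.0, a test against a 2-fold change (glmTreat) and each library left out in turn, with the remaining library taken to vary as much as the other group's. The fit was tested on simulated data. Promoter sequences are from RefSeq (GRCm38.p6) and were joined by symbol, with no use of the authors' coordinates.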

Additional observations from a re-analysis of the deposited data

How the results depend on the processing

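RLE size factors, no filter on low counts, DESeq2 and the replicate block kept the counts of genes called over the whole table, by direction and by size, within 1.5 times those in the report. With the replicate block, 8392 genes passed, 4037 higher and 4355 lower, against 8253 in the report. Deviations of same-numbered libraries had a correlation of 0.0747 across genes, a single value that does not show pairs. On library totals alone, 2096 genes were higher and 488 of them over 2-fold. The log2 fold change of Vegfa, which did not pass, became -0.27 there and passed as lower. Tested against a 2-fold change (glmTreat), 2653 genes passed, 435 of them higher. Leaving out 1 library at a time gave 2878 to 4725 lower genes. Of 243 named genes that passed, 233 kept their call in all 4 such fits and 196 under every alternative. The largest loss, 37 named genes, came with all 16 libraries in the fit, and the cause was not tested. Depth sets only a lower bound on the fold where both libraries of a group had 0 counts, as for Cd36 (at least 23.6-fold).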

Other observations

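Of 9 extraembryonic mesoderm markers tested, 6 fell in exVE and 0 rose, with a summed level of 64.5 and 41.9 CPM in exVE and 124 and 129.9 CPM in emVE. Ahnak, a scaffold protein gene, stood at 5.48 and 3.50 CPM in exVE and 23.2 and 27.3 CPM in emVE, and Tbx20, a mesoderm and heart factor, at 4.93 and 6.06 CPM and 16.4 and 13.7 CPM. Of 5 markers of decidua and maternal immune cells tested of 11 listed, 1 rose and 2 fell, and the list summed to 9.94 and 10.3 CPM in exVE and 9.49 and 10.1 CPM in emVE. Xist and 4 Y-linked genes served to look at the sex of the embryos behind each library. Both Xist and Y-linked transcripts were present in all 4 libraries, and 1 of the 5 genes fell, Kdm5d, at 8.77 and 6.27 CPM in exVE and 16.7 and 14.8 CPM in emVE, while Ddx3y stood at 33.9 and 27.4 CPM and 28.5 and 19.4 CPM.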
